A study of Homo sapiens with 4 samples.

Results

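Actins, myosin chains, tropomyosins, actin-binding proteins, the transcription factors SRF, MRTFA and MRTFB and a few target genes of SRF and YAP were followed in PC3 cells after depletion of COUP-TFII, a nuclear receptor with no established ligand. The list held 38 genes, chosen by name with earlier results of these data known. Its members were the probe sets that the array's gene table assigned to exactly 1 of those genes. This gave 110 of 54675 probe sets, for 35 of 19775 genes. FLNA, TPM3 and ACTG1 had no probe set assigned to them alone and were not analysed here as genes. PC3 cells are an established human line, grown from a prostate carcinoma that had spread to bone. Cells were transfected with 40 nM of a control siRNA or of COUP-TFII siRNA and total RNA was taken at 48 h, with 2 arrays in each group. Nothing in the labels tells if the replicates are separate transfections, so the p-values measure only the spread among these arrays, and that spread may be technical. The targeted transcript itself was not analysed here.

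Contraction in non-muscle cells rests on myosin II, which is built from heavy chains such as MYH9, MYH10 and MYH14 and from light chains, and which pulls on actin filaments when the regulatory light chain is phosphorylated. The myosin light chain kinase MYLK promotes that phosphorylation, and tropomyosins, calponins and caldesmon bind along the filament and tune myosin access. SRF (serum response factor) switches on many of these genes. Its coactivators MRTFA and MRTFB are held back by monomeric actin and released when filaments assemble. YAP, which also responds to tension in the cytoskeleton, acts through TEAD factors on genes such as ANKRD1 and CCN1.

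The arrays gave probe set intensities on a linear scale, with array medians from 31.7 to 32.8. Values were used as log2(intensity + 16), so that a fold change understates the change of a dim probe set, and each gene was represented by 1 bright probe set. The cells carried epithelial markers, with KRT8, KRT18, KRT19, EPCAM and CDH1 at 2024 or more in every array and VIM between 1703 and 2239. The prostate luminal genes KLK3 and KLK2 lay between 8.56 and 25.9. A call means a Benjamini-Hochberg adjusted p under 0.05 over all genes (limma). Each SE is limma's moderated one, in which a gene's own spread is drawn toward that of genes of like intensity. It is therefore not the plain spread of that gene's 4 arrays, and can be smaller or larger.

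More members rose than fell after COUP-TFII siRNA. Of the 35 measured, 15 rose, 3 fell and 17 did not pass. MYL9, ANKRD1, TPM2, MYH14, PDLIM7, CALD1, MRTFA, ACTG2, TPM4, MYH9, CNN2, ACTN4, TAGLN, MRTFB and TPM1 rose, from the largest log2 fold change (2.29) to the smallest (0.30). TES, TAGLN2 and MYL12A fell, with log2 changes of −1.59, −0.37 and −0.29. Over all 19775 genes 23.0% were called, 12.7% as higher and 10.3% as lower, against 51.4%, 42.9% and 8.6% of the members. The list was chosen with earlier results of these data known, so its larger share of higher calls is not an independent result. Bright probe sets are called more often. Of the 7670 genes with a mean intensity of at least 200, 46.4% were called, 25.3% as higher and 21.1% as lower. Of the 28 members that bright, 14 were called, 11 (39.3%) as higher and 3 as lower. The share of members called at all was thus close to that of all genes above this limit, which were not otherwise matched to the members in brightness. The median log2 fold change was 0.17 for the members (interquartile range 0.05 to 0.41), 0.01 for all genes (−0.20 to 0.23) and 0.04 for genes with a mean of at least 200. The arrays measured RNA of whole cultures, so a change in the share of cells that make a transcript and a change per cell cannot be told apart.

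The counts of calls differed between settings, for the members and for all genes alike. With 1 prior variance for all genes 5 members passed, MYL9, CALD1, TPM2 and ANKRD1 as higher and TES as lower, beside 1568 of all genes. Members called numbered 11 without control replicate 1, 7 without control replicate 2, 12 without COUP-TFII siRNA replicate 1 and 11 without COUP-TFII siRNA replicate 2. All genes called fell in the same fits from 4558 to 1966, 1828, 2328 and 2348, while the members' median stayed between 0.17 and 0.23. When arrays were centred on housekeeping genes, 26 members were higher and 1 was lower, and the median over all genes went from 0.01 to 0.23. The centring used the median level of 16 housekeeping genes in each array, so it depends on which of them rank in the middle. The median log2 change of these genes themselves was −0.07. Centring subtracts the same amount from every gene of an array. The distance between the members' median and that of all genes, 0.15, therefore could not change with it. Across all genes the same centring gave 5578 higher and 1067 lower calls, against 2519 and 2039.

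**Figure D1:**
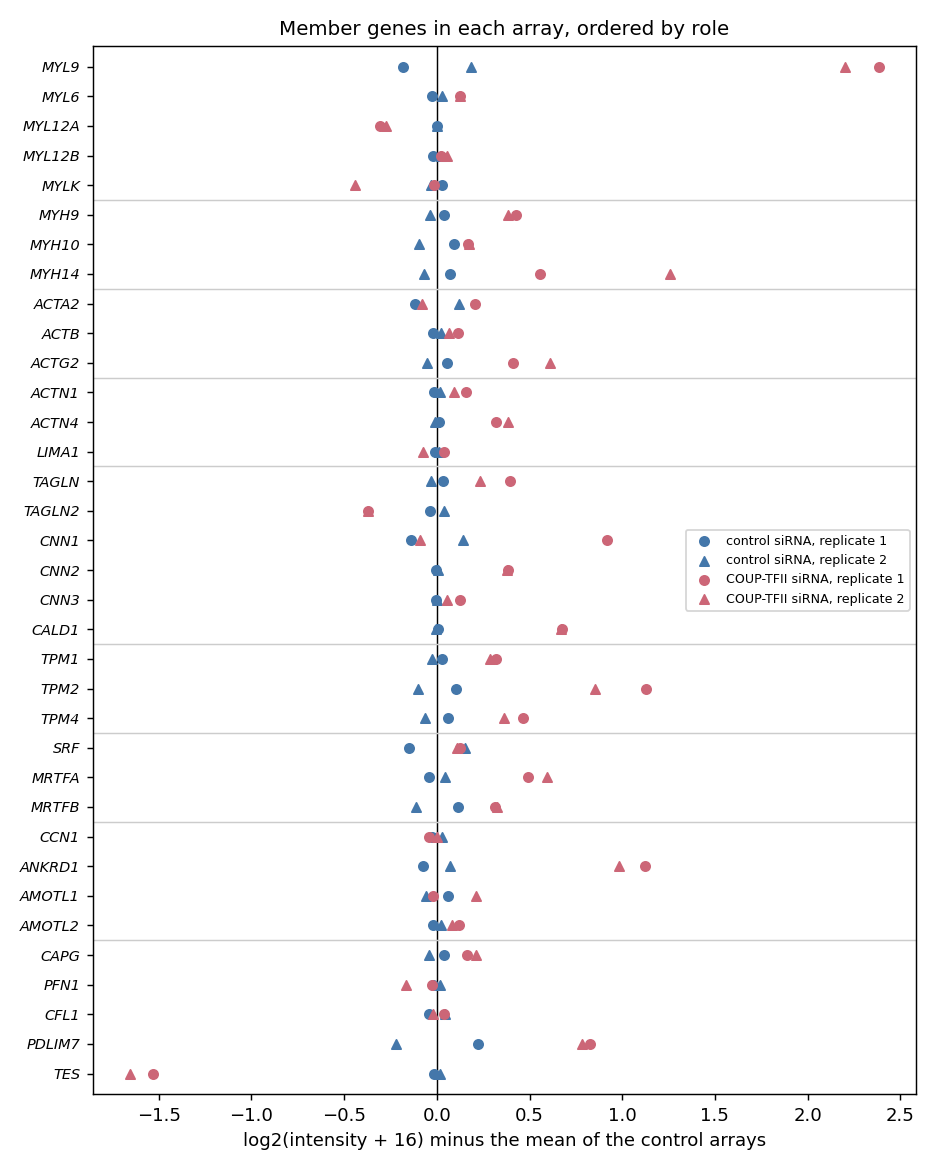
Each row is a member gene and each point 1 array, plotted as log2(intensity + 16) minus the mean of the control arrays, with control siRNA in blue and COUP-TFII siRNA in red. MYL9, TPM2 and ANKRD1 stand far to the right in both COUP-TFII siRNA arrays and TES far to the left, while CNN1 and MYLK are split between their COUP-TFII siRNA arrays.

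The SRF transcript itself gave overlapping groups. SRF had intensities of 217 and 271 in the control arrays and 265 and 262 in the COUP-TFII siRNA arrays. Both treated values lay between the control values, and the log2 change was 0.12 ± 0.12 (SE, n = 2 against 2; adjusted p = 0.579 by limma). Its coactivators were higher. MRTFA went from 184 and 196 to 274 and 296, a log2 change of 0.55 ± 0.10 (SE; adjusted p = 0.00518 by limma). The groups of MRTFA did not overlap, and 1 of its 5 probe sets passed in the fit of all probe sets. MRTFB had intensities of 369 and 312 in the control arrays and 426 and 429 in the COUP-TFII siRNA arrays. Its log2 change of 0.32 ± 0.10 (SE) was just past the threshold (adjusted p = 0.0454 by limma). In the fit of all probe sets 0 of the 5 MRTFB probe sets passed (smallest adjusted p 0.0783 by limma), and the mean over its probe sets differed by −0.01. MRTFB lost its call whichever array was left out (adjusted p from 0.0624 to 0.289 by limma), and its log2 change was 0.20 without control replicate 2. MRTFA did not pass without control replicate 1 (0.0724), control replicate 2 (0.0536) or COUP-TFII siRNA replicate 2 (0.0737). The mean of the MRTFA probe sets differed by 0.13 and was not called.

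SRF binds the CArG box, and TEAD factors bind GGAATG. Promoter windows, from RefSeq on GRCh38.p14, ran from 250 bases before to 50 after the gene start. They were matched for 34 of the 38 genes and not for MYL9, ACTB, TAGLN or CCN1. For each gene only the first window listed for its symbol was used, so other starts were not searched. Which transcripts begin at these starts, those of MYLK among them, was not examined. A CArG box, searched on both strands, lay in 7 of the 34 windows (20.6%) and in 1.29% of 27305 promoters of the same length. The list was drawn up partly as SRF target genes, so this share describes the choice of genes. The 7 were ACTG2, CNN2, TPM4, SRF, MYLK, ACTG1 and FLNA. Of the 5 of these that were measured, ACTG2, CNN2 and TPM4 rose and SRF and MYLK did not pass. Among all measured members 42.9% were called as higher, and among all genes 12.7%. With 5 genes, no link between the box and a rise can be read from this count. The promoters of these 5 are shown, since they set members that rose beside members that did not pass with the same box, as the 250 bases before the start, 5′ to 3′ on the gene's strand, with the CArG boxes in capitals.
ACTG2 (chr2:73892758-73893007, plus strand): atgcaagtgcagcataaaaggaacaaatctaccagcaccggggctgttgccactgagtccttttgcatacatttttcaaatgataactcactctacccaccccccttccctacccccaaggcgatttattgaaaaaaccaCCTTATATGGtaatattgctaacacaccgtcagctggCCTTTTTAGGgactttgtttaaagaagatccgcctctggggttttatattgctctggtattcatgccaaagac
CNN2 (chr19:1026358-1026607, plus strand): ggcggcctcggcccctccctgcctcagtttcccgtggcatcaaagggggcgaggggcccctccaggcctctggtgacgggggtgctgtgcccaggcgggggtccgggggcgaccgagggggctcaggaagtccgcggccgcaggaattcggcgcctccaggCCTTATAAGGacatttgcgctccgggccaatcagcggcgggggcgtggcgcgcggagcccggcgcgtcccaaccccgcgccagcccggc
TPM4 (chr19:16067288-16067537, plus strand): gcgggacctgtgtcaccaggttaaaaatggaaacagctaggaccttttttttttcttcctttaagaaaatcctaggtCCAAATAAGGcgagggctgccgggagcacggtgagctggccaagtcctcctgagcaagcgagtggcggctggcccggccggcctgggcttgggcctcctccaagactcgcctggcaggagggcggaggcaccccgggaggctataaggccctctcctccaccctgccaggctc
SRF (chr6:43171019-43171268, plus strand): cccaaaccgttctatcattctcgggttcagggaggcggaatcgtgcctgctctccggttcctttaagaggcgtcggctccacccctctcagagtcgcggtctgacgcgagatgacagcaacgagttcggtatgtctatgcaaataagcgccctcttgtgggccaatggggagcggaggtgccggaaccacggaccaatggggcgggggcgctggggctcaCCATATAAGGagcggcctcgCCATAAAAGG
MYLK (chr3:123620549-123620798, minus strand): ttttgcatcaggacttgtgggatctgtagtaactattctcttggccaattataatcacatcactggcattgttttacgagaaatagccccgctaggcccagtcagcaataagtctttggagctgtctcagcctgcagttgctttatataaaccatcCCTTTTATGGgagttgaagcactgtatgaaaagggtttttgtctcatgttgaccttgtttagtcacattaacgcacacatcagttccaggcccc

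In ACTG2 the boxes lay at −110 to −101 and −73 to −64 from the start, and in SRF at −30 to −21 and −10 to −1. CNN2, TPM4 and MYLK each held 1, beginning at −89, −173 and −94. GGAATG, searched on both strands, lay in 7 of the 34 windows (20.6%), against 14.05% of all promoters, and at 2 places in ANKRD1. Of these 7, ANKRD1, MYH9 and CALD1 rose, MYL12A fell, and MYLK, MYH10 and PFN1 did not pass. The share that rose was like that of all measured members, 42.9%, against 12.7% of all genes. The YAP targets AMOTL1 and AMOTL2 held none. AGGTCA, the core motif of many nuclear receptors, lay in 3 of 34 (8.8%), MYLK, MRTFA and TES, against 13.94% of all promoters. These matches do not show binding. The promoters of ANKRD1 and TES, the YAP target that rose and the member that fell most, are shown with GGAATG (ANKRD1) or AGGTCA (TES) in capitals.
ANKRD1 (chr10:90921088-90921337, minus strand): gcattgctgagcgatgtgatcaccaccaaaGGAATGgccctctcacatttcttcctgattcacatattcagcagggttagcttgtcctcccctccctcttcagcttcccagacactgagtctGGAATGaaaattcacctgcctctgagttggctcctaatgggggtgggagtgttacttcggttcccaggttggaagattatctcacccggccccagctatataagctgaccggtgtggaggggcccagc
TES (chr7:116210289-116210538, plus strand): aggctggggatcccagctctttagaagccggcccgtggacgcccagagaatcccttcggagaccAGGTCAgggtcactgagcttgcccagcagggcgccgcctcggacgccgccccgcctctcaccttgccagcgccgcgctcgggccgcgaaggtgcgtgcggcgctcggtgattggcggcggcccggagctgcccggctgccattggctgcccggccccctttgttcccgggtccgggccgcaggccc

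Among the myosin light chains the regulatory chain MYL9, a form abundant in smooth muscle, rose while its close paralogue MYL12A fell. MYL9 had intensities of 69.0 and 93.5 in the control arrays and 488 and 428 in the COUP-TFII siRNA arrays. Every treated value was thus well above every control value, with a log2 change of 2.29 ± 0.14 (SE; adjusted p = 1.08e-05 by limma). The other MYL9 probe set, near the median of the array, read 45.3 and 30.4 against 53.0 and 38.4 and did not pass. With both averaged the log2 change of MYL9 was 1.25, still called. MYL12A went from 5182 and 5192 to 4184 and 4282, a fall of 0.29 on the log2 scale (SE 0.04; adjusted p = 0.00138 by limma). MYL12B, the other non-muscle regulatory chain, differed by 0.04 ± 0.04 (SE), and a probe set shared by MYL12A and MYL12B by −0.06. The essential light chain gene MYL6 differed by 0.12 ± 0.04 (adjusted p = 0.062 by limma) and MYLK by −0.23 ± 0.19, neither past the threshold. MYL6 passed in 5 of the 13 alternatives, among them quantile normalization (adjusted p = 0.0145 by limma) and the replicate block (0.0311). MYLK was at −0.44 without COUP-TFII siRNA replicate 1 and at −0.02 without COUP-TFII siRNA replicate 2. MYL12A was at −0.08 after centring on housekeeping genes and −0.05 with its 4 probe sets averaged, both not called, and did not pass without control replicate 1 (adjusted p = 0.0563 by limma) or control replicate 2 (0.0608).

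The heavy chain genes MYH9 and MYH14 rose. MYH9 went from 1817 and 1723 to 2380 and 2310, a log2 change of 0.40 ± 0.05 (SE; adjusted p = 0.000736 by limma). MYH14 had intensities of 41.1 and 35.8 in the control arrays and 64.1 and 114 in the COUP-TFII siRNA arrays. The treated values were apart from the controls but also far from each other, with a log2 change of 0.91 ± 0.24 (SE; adjusted p = 0.026 by limma). In the fit of all probe sets 0 of the 6 MYH14 probe sets passed (smallest adjusted p 0.0665 by limma). Its 3 brightest, marked _x_at for possible cross-hybridisation, differed by 0.25, 0.41 and 0.51, and with such probe sets allowed the gene was not called. MYH14 did not pass without control replicate 1 (adjusted p = 0.147 by limma), control replicate 2 (0.209) or COUP-TFII siRNA replicate 2 (0.208, log2 fold change 0.56). MYH10 differed by 0.17 ± 0.08 (SE) and did not pass.

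Of the 3 actin genes measured singly, the smooth muscle gamma actin gene ACTG2 rose and ACTA2 and ACTB did not pass. ACTG2 read 133 and 123 in the control arrays and 176 and 204 in the COUP-TFII siRNA arrays, and the groups stood apart. The log2 change was 0.51 ± 0.13 (SE; adjusted p = 0.0206 by limma), and ACTG2 lost its call whichever array was left out (adjusted p from 0.072 to 0.165 by limma). ACTA2, the smooth muscle alpha actin gene, was dim and overlapped between groups, at 49.97 and 61.8 against 66.5 and 51.8. ACTB, the beta actin of every cell, read 12576 and 12972 in the control arrays and 13807 and 13387 in the COUP-TFII siRNA arrays. The groups did not overlap, but the log2 fold change of 0.09 ± 0.04 (SE) did not pass (adjusted p = 0.162 by limma).

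The bright actin probe sets differed by little, and with opposite signs. The 3 ACTB probe sets, all _x_at, differed by 0.09 to 0.11 on the log2 scale. The 9 probe sets assigned to both ACTB and ACTG1 lay between 9375 and 12718 in the control arrays and between 8765 and 11798 in the COUP-TFII siRNA arrays, with log2 differences from −0.14 to −0.09. None of the 12 passed (limma adjusted p from 0.0734 to 0.283), whereas with dim probe sets left out all 12 did. The 3 ACTB sets also passed after quantile normalization, at 0.12 to 0.14, and 1 shared set passed with the replicate block and 1 with a pseudocount of 64. After centring on housekeeping genes the shared sets were at 0.07 to 0.13, and the ACTB sets, at 0.30 to 0.32, passed. The 3′ to 5′ ratio of the ACTB control probe sets, a sign of RNA integrity, was 1.52 and 1.83 in the control arrays and 1.42 and 1.46 in the COUP-TFII siRNA arrays. The same ratio for GAPDH was 0.96 and 0.99 against 0.99 and 0.99. Its part in the actin values was not tested.

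**Figure D2:**
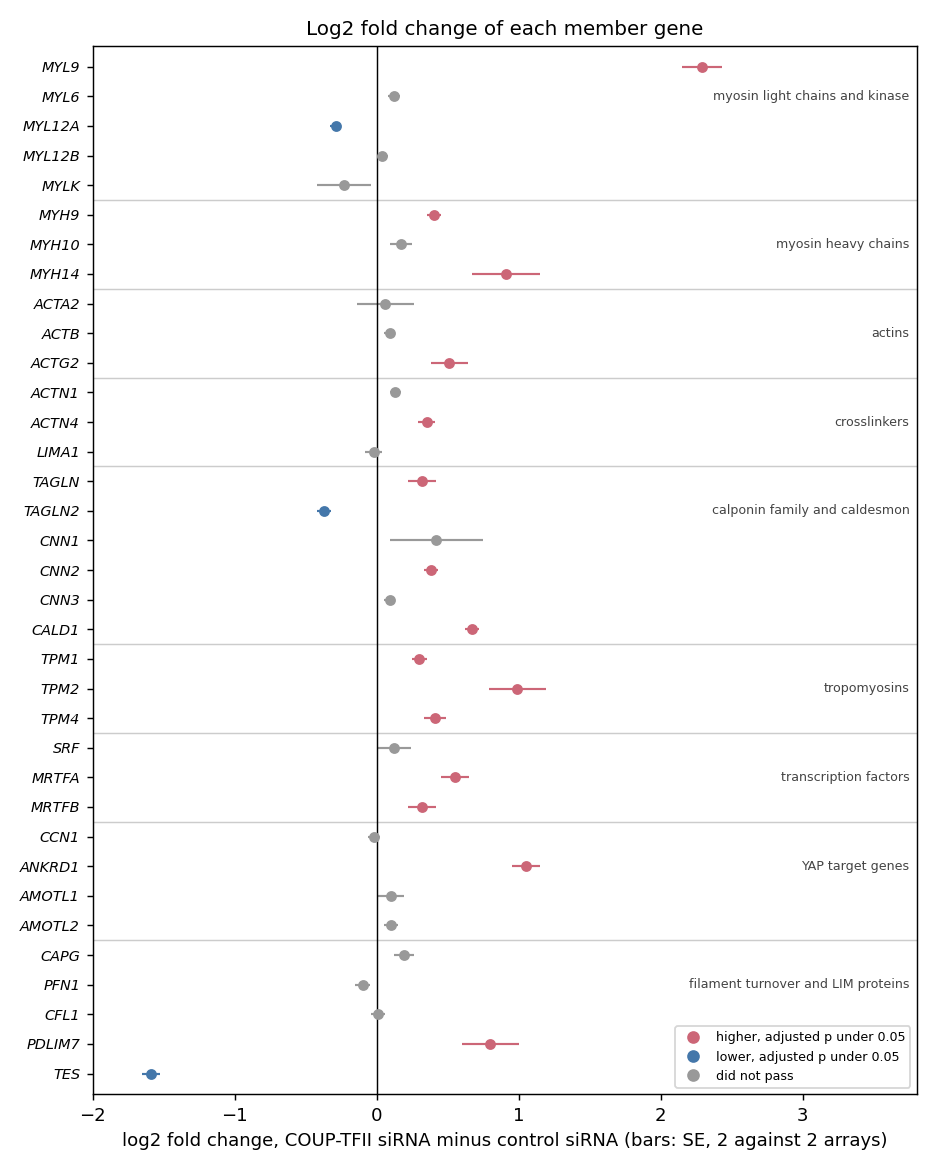
Each point is the log2 fold change of 1 member gene, COUP-TFII siRNA minus control siRNA, with its moderated SE (limma, 2 against 2 arrays), in blocks by role. Members that rose are red, members that fell blue and the rest grey, and all 3 measured tropomyosin genes are red.

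All 3 measured tropomyosin genes rose. TPM2 had intensities of 32.4 and 26.1 in the control arrays and 82.6 and 65.7 in the COUP-TFII siRNA arrays. The controls were near the array median and the treated arrays averaged 2.53 times as much, with a log2 change of 0.99 ± 0.20 (SE; adjusted p = 0.00692 by limma). TPM4 went from 521 and 477 to 695 and 645, a log2 change of 0.41 ± 0.08 (SE; adjusted p = 0.0055 by limma). TPM1 went from 2810 and 2705 to 3444 and 3362 on the probe set that represented it, a log2 change of 0.30 ± 0.05 (SE; adjusted p = 0.00209 by limma). TPM2 lost its call whichever array was left out (adjusted p from 0.053 to 0.109 by limma), TPM4 without control replicate 2 (0.0956) or COUP-TFII siRNA replicate 1 (0.0787), and TPM1 without control replicate 2 (0.0741). With probe sets averaged TPM2 (0.36) and TPM4 (0.15) were not called.

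The probe sets of TPM1 and TAGLN differed widely in size, which was picked out after their values were seen. TPM1 is spliced into many isoforms. The TPM1 probe set 206117_at went from 82.9 and 84.7 to 463 and 480, a log2 change of 2.29 ± 0.09 (SE; adjusted p = 4.6e-05 by limma over all probe sets). This was as large a change as that of MYL9, and the other TPM1 probe sets that passed, 206116_s_at, 210987_x_at and 210986_s_at, rose by 0.65, 0.35 and 0.30. Which transcripts each probe set detects was not examined here. TAGLN encodes transgelin, an actin-binding protein of the calponin family and a known SRF target. It was called on its brightest probe set, from 292 and 279 to 381 and 339, with a log2 change of 0.32 ± 0.10 (SE; adjusted p = 0.0443 by limma), and lost its call whichever array was left out (adjusted p from 0.075 to 0.24 by limma). The same probe set did not pass in the fit of all probe sets (adjusted p = 0.0681 by limma). The TAGLN probe set 205547_s_at went from 56.1 and 68.7 to 223 and 233, a log2 change of 1.64 ± 0.13 (SE; adjusted p = 0.0004 by limma over all probe sets). It passed with each array left out (adjusted p from 0.0298 to 0.0405 by limma), as did TPM1 206117_at (0.0129 to 0.0378).

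CALD1, the gene of caldesmon, which restrains myosin on the filament, rose on several probe sets. It went from 2333 and 2317 to 3722 and 3712, a log2 change of 0.67 ± 0.05 (SE; adjusted p = 1.81e-05 by limma). Replicates differed far less than the groups did, and 4 of its 11 probe sets passed, all as higher and by 0.67 to 1.0. With its probe sets averaged the log2 change was 0.36 (adjusted p = 0.0406 by limma). CNN2, a calponin gene, rose by 0.38 ± 0.05 (SE) on its only probe set, an _x_at one, and CNN3 differed by 0.09 ± 0.04 without passing. CNN1, the smooth muscle calponin gene, was near the low end in 3 arrays, at 1.01, 4.63 and 1.62, and at 19.4 in COUP-TFII siRNA replicate 1. TAGLN2, the transgelin of non-muscle cells, fell. Its intensities were 5925 and 6257 in the control arrays and 4710 and 4702 in the COUP-TFII siRNA arrays, a fall of 0.37 on the log2 scale (SE 0.05; adjusted p = 0.000486 by limma), with both probe sets passing. After centring on housekeeping genes TAGLN2 was at −0.16 and not called.

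**Figure D3:**
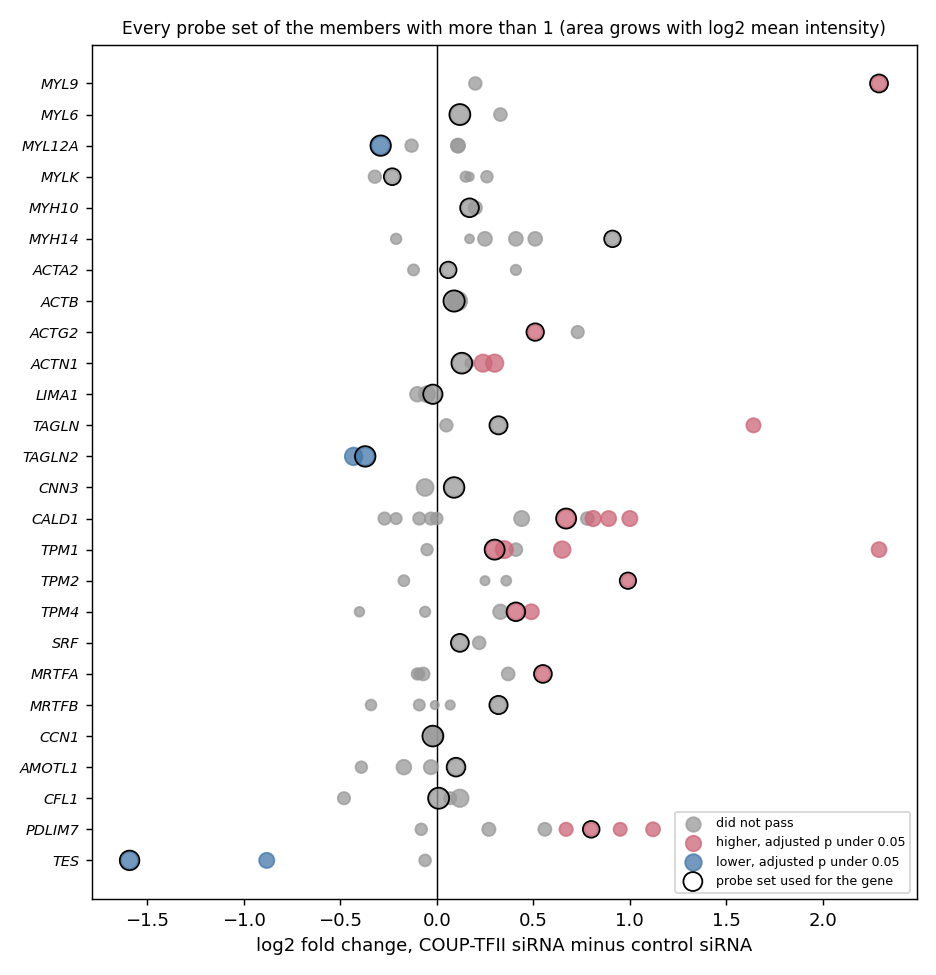
Every single-gene probe set of the members that had more than 1 is plotted by its log2 fold change, with the area of a point growing with the log2 mean intensity, red for higher, blue for lower and grey for not passing over all probe sets, and a black ring on the probe set that represented the gene. The ringed TPM1 and TAGLN points lie at 0.30 and 0.32, well to the left of the points at 2.29 and 1.64.

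Across the list, 25 of the 110 probe sets passed as higher and 5 as lower, while 12.2% of all probe sets were called, 6.51% as higher and 5.67% as lower. The probe sets that passed all had a mean of at least 32, and 30 of the 110 lay below it. No member had probe sets passing in both directions. ACTN1, which encodes a crosslinker of stress fibres, did not pass on its brightest probe set (0.13 ± 0.04, SE; adjusted p = 0.0743 by limma), but 2 of its 4 passed, at 0.30 and 0.24, and neither of these did with an array left out (adjusted p from 0.1 to 0.229 by limma). Its relative ACTN4 rose from 1165 and 1146 to 1445 and 1514, a log2 change of 0.35 ± 0.06 (SE; adjusted p = 0.00225 by limma, and 0.0615 without control replicate 2). LIMA1, which stabilises filament bundles, differed by −0.02 ± 0.06 and did not pass.

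Of the proteins of filament turnover and the LIM domain proteins, PDLIM7 rose and TES fell. TES encodes testin, which sits at focal adhesions and binds zyxin. It went from 2558 and 2619 to 884 and 811, so that both treated arrays read about 0.33 times the control mean. The log2 change was −1.59 ± 0.06 (SE; adjusted p = 1.73e-06 by limma), 2 of its 3 probe sets passed, and it remained called in all 13 alternatives (−1.65 to −1.53 with 1 array left out, −0.84 with probe sets averaged). PDLIM7, which links actinin-bearing filaments to signalling proteins, had intensities of 56.5 and 37.4 in the control arrays and 94.1 and 91.2 in the COUP-TFII siRNA arrays. Its log2 change was 0.80 ± 0.20 (SE; adjusted p = 0.0176 by limma), and 4 of its 7 probe sets passed, all as higher, the largest at 1.12. PDLIM7 did not pass without control replicate 2 (adjusted p = 0.143 by limma) or either COUP-TFII siRNA array (0.171 and 0.149). CAPG, which caps filament ends, differed by 0.19, the monomer-binding profilin gene PFN1 by −0.10 and the severing factor gene CFL1 by 0.01, and none passed.

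Of the 4 measured YAP target genes, ANKRD1 rose and the other 3 did not pass. All 4 had a mean of at least 200, and 25.3% of all such genes were called as higher. A count of 1 in 4 is near that share. ANKRD1 went from 206 and 229 to 493 and 445, a log2 change of 1.05 ± 0.10 (SE; adjusted p = 0.0001 by limma). The groups were well apart, and the call held in all 13 alternatives (0.92 to 1.26). CCN1, a secreted matricellular protein gene, read 7224 and 7499 in the control arrays and 7145 and 7378 in the COUP-TFII siRNA arrays. Its groups overlapped, and the difference of −0.02 ± 0.04 (SE) did not pass. AMOTL1 and AMOTL2, relatives of the YAP inhibitor angiomotin, differed by 0.10 each and did not pass.

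**Figure D4:**
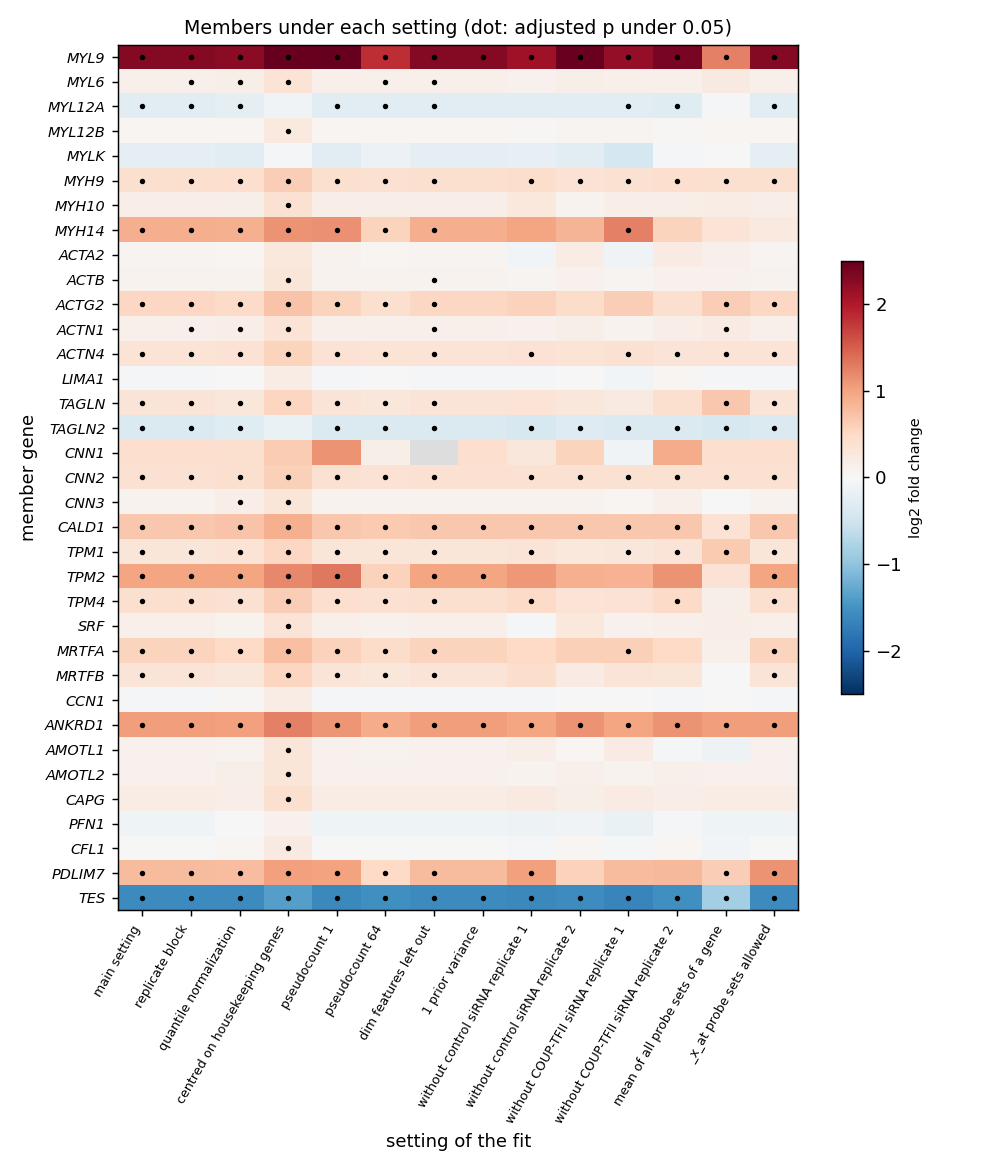
Colour gives the log2 fold change of each member gene (rows) under each setting of the fit (columns), and a dot marks an adjusted p under 0.05. MYL9, CALD1, ANKRD1 and TES carry a dot in every column, and the column centred on housekeeping genes holds 27 dots, against 18 with the main setting. The grey cell is CNN1, which was too dim to be kept when dim genes were left out.

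Further SRF and MRTF targets were taken from a list and numbered 15 measured genes, of which 4 rose and 2 fell while 9 missed the threshold, at a median of 0.08. Among all genes with a mean of at least 200, 25.3% were called as higher and 21.1% as lower, against 12.7% and 10.3% of all genes. The count of targets that rose is near the share of the brighter genes, though EGR1, FOS and LMOD1 had means under 200. LPP, a LIM protein of focal adhesions, rose from 492 and 350 to 1077 and 1144, a log2 change of 1.38 ± 0.13 (SE; adjusted p = 0.000111 by limma), and PDLIM5 rose by 0.65 ± 0.06. VIM and FHL2 fell by 0.36 and 0.31. CCN2, which is also a YAP target, differed by 0.14, and EGR1 and FOS were dim and did not pass.

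Among the members typical of smooth muscle, MYL9, ACTG2 and TAGLN rose, while ACTA2 and CNN1 did not pass. No marker on a separate list of smooth muscle genes passed as higher. Over all genes 12.7% were called as higher and 10.3% as lower. Of 8 such markers DES fell, by 0.72 on the log2 scale, and 7 missed the threshold; SMTN and LMOD1 are also among the SRF targets above. Their summed intensity was 706 and 791 in the control arrays and 687 and 646 in the COUP-TFII siRNA arrays. Of the defining markers, MYH11 lay between 18.2 and 29.96 in all arrays and LMOD1 between 2.93 and 9.10. Of 8 fibroblast markers 1 rose, COL1A1, by 0.73 ± 0.07 (SE), and the other 7 missed the threshold, at a median of −0.16. The markers summed to 821 and 751 in the control arrays and 1146 and 1120 in the COUP-TFII siRNA arrays, of which COL1A1 made up 599 and 540 against 962 and 950. The fibroblast genes DCN, LUM and COL1A2 read at most 44.7, 85.3 and 51.5. The part of fibroblast transcripts in the results was not tested.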

How the data were processed

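Each array was an Affymetrix chip read in 1 colour, with cRNA made by 3′ IVT, per the labels' protocols. The authors deposited linear intensities, 1 per probe set. How they were summarised, background-corrected or scaled is not stated in the sources used here. No further scaling was applied in the main setting, and array medians differed by 3.66%. These medians lie near the dim limit of 32, so they say little about the scale of brighter genes. Precision is limited by the number of arrays, and no detection calls came with the values.

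Symbols were updated through Entrez identifiers with RefSeq's genes for GRCh38.p14, matching 41037 of 41091 single-gene probe sets. A gene was represented by the brightest of its single-gene probe sets, leaving out _x_at probe sets where it had another. Groups were compared on log2(value + 16) with limma 3.58.1 in R 4.3.3 (lmFit, eBayes with an intensity trend, no replicate block). This was done over all 19775 genes and, separately, over 54613 probe sets. On simulated data the gene fit recovered 38.8% of genes changed by 0.5 on the log2 scale, 94% at 1 and 100% at 2. Of its 162 calls there, 7 were false. The real data gave far more calls, so these shares need not hold for them. A gene that did not pass may still have changed. Control probe sets (62) were left out. The smallest two-sided p of an exact permutation test is 0.333 in this design.

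The members and lists were chosen with earlier results of these data known. Values by array are given for members that passed with a log2 change of at least 0.5, for SRF, MRTFA, MRTFB and ACTB, and for further members as examples. From other lists at most the 4 largest changes that passed were named, except that all called epithelial and housekeeping genes, ARPC3 and a few genes that did not pass were added after their values were seen. Lists covered further SRF targets, branched actin nucleation, other myosins, smooth muscle, fibroblast, epithelial and androgen response markers and housekeeping genes, and 1 further list is not reported here. Alternatives were the replicate block, quantile normalization, centring on housekeeping genes, pseudocounts of 1 and 64, dim features (mean under 32) left out, 1 prior variance, probe set choice and each array left out.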

Additional observations from a re-analysis of the deposited data

How the results depend on the processing

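Of the 18 called members, MYL9, CALD1, ANKRD1 and TES kept their call in all 13 alternatives and 14 lost it in at least 1. With probe sets averaged the log2 change of MYL9 went from 2.29 to 1.25, that of CALD1 from 0.67 to 0.36 and that of TES from −1.59 to −0.84. Members called numbered 7 to 12 with 1 array left out (5 to 9 higher, 2 to 3 lower), their median log2 fold change was 0.17 to 0.23, member probe sets called numbered 7 to 13 and all genes called 1828 to 2348. With 1 prior variance, 1568 genes, 5 members (4 higher, 1 lower) and 4 member probe sets passed. Centring on housekeeping genes gave 26 members higher and 1 lower, a median of 0.38 and 52 member probe sets. The median was 0.15 with a pseudocount of 64 and with dim genes left out.

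Replicate numbers are shared between groups, and the labels do not tell if equal numbers mark a pair. The differences between replicates did not correlate between groups (r = 0.017 across genes, which are not independent). With so few arrays this cannot show that pairing was absent. With a replicate block 5127 genes, 20 members (17 higher, 3 lower) and 35 member probe sets passed.

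One called member changed direction, MRTFB, at −0.01 with probe sets averaged. Members that did not pass changed direction as follows. With probe sets averaged MYLK was at 0.01, AMOTL1 at −0.12 and CFL1 at −0.07. CCN1 was at 0.02 after quantile normalization, and at 0.19 after centring on housekeeping genes, as was LIMA1, with PFN1 at 0.11. With 1 array left out the ranges were −0.08 to 0.20 for ACTA2, −0.04 to 0.27 for SRF, −0.04 to 0.05 for CFL1, −0.05 to 0.01 for CCN1, −0.09 to 0.92 for CNN1, −0.07 to 0.04 for LIMA1 and −0.02 to 0.21 for AMOTL1. The causes were not tested. CNN1 gave no value with dim genes left out.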

Other observations

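Genes of branched actin assembly, a different branch of the actin machinery, rose more often than they fell. Among 14 measured genes 8 rose and 1 fell while 5 missed the threshold, at a median of 0.20 on the log2 scale, against 12.7% of all genes called as higher and 25.3% of those with a mean of at least 200. ARPC4, a subunit of the Arp2/3 complex that starts side branches on filaments, rose from 681 and 749 to 1196 and 1140, a log2 change of 0.70 ± 0.07 (SE; adjusted p = 0.000152 by limma). VASP, which speeds filament elongation, rose by 0.49 ± 0.07, and the Arp2/3 subunit genes ARPC5 and ARPC1B rose by 0.36 each. The 1 that fell was ARPC3, another Arp2/3 subunit gene, from 6157 and 6364 to 5432 and 4977, named after its value was seen.

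Of 6 measured genes of other myosins, 2 rose and 4 did not pass, at a median of 0.41 on the log2 scale. Over all genes 12.7% were called as higher, and 25.3% of those with a mean of at least 200. MYO1E and MYO9B had means under 200, and so few genes cannot be set apart from these shares. MYO10, the motor of filopodia, rose by 0.65 ± 0.08 and MYO6, which moves toward the pointed end of filaments, by 0.47 ± 0.07 (SE, log2 scale). Among the epithelial markers KRT8 and KRT18 rose, by 0.16 and 0.13, EPCAM and CDH1 fell, by 0.24 and 0.30, and KRT19 did not pass. VIM, a mesenchymal gene that PC3 cells express, fell by 0.36. Of the 3 measured androgen response markers TMPRSS2 rose, from 132 and 157 to 391 and 392, and KLK3 and KLK2 did not pass. Of 16 housekeeping genes 2 rose and 3 fell. Over all genes 12.7% were called as higher and 10.3% as lower, and 25.3% and 21.1% of those with a mean of at least 200. The epithelial, androgen response and housekeeping counts were not tested against these shares. POLR2A rose by 1.04, SDHA by 0.20, and HPRT1, EMC7 and PGK1 fell by 0.77, 0.57 and 0.26.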
